A study of Mus musculus with 6 samples.

Results

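The cytosolic ribosomal protein genes are the nuclear genes for the proteins of the large (Rpl) and small (Rps) ribosomal subunits. They were taken from the deposited mRNA count table of a mouse embryonic stem cell study by symbol: Rpl or Rps followed by a digit, together with Rplp0, Rplp1, Rplp2 and Rpsa, leaving out Rps6k kinases and symbols with -ps. This gave 86 of 21978 entries: 46 genes of the large subunit, 31 of the small subunit, 8 paralog copies and Rps19bp1, which the symbol rule takes although its product is a Sirt1-binding protein and no part of the ribosome. All 86 were among the 16498 genes that passed the expression filter and were tested.

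Each ribosome holds a single copy of nearly every one of these proteins, and cells make them in matched amounts. In mammals the mRNAs are abundant and are controlled together, both in transcription and in translation, where mTOR and the RNA-binding protein Larp1 act through a run of pyrimidines that starts with C at the 5′ end. A few proteins have a second gene: some are retrocopies without introns, and several, such as Rpl3l in muscle and Rpl10l in testis, are known for expression in particular tissues.

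The study compared 3 groups of 2 libraries each. E518K cells (clones 8 and 15) had the genotype DGCR8 E518K/E518K and were transfected with a Sleeping Beauty transposon vector for Flag-tagged DGCR8 with the E518K substitution, together with the SB100X transposase. KO cells (libraries 1 and 3, both titled with clone number 261) were DGCR8 -/- and not transfected. The wt cells (clones 12 and 16), labelled DGCR8 wt/wt, received the same vector with wild-type DGCR8. DGCR8 is the RNA-binding partner of Drosha in miRNA processing. All cells, KO included, were given doxycycline at 300 ng/mL for 48 h, in feeder-free culture with LIF, CHIR99021 (a GSK3 inhibitor) and PD0325901 (a MEK inhibitor). KO therefore differs from both wt and E518K in transfection as well as in DGCR8, and these cannot be told apart.

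Library totals ran from 73642784 to 75121971 counts. Dgcr8 itself had 821 and 420 CPM (counts scaled to equal library size) in E518K clones 8 and 15, 40.0 and 37.1 CPM in KO, and 196 and 992 CPM in wt clones 12 and 16, so the wt clones were far apart. The 7 embryonic stem cell markers summed to 4538 and 4556 CPM in E518K, 4111 and 4044 CPM in KO, and 4943 and 4455 CPM in wt. Markers of fibroblasts (7 genes), trophectoderm (5 genes) and primitive endoderm (5 genes) summed to at most 7.56, 32.6 and 4.08 CPM in any library. Of the 5 blood markers, Laptm5 gave 275 to 300 CPM in every library, Hba-a1 was at 0 in all of them and the other 3 stayed under 2 CPM. KO, with the lowest stem cell marker sum, was also the group with the lowest ribosomal protein counts, but the single markers were not uniform. Of the 7, Klf4, Esrrb, Sox2, Zfp42 and Pou5f1 fell in KO against wt, with log2 fold changes of -1.07, -0.43, -0.25, -0.24 and -0.22. Their edgeR adjusted p ran from 0.000605 to 0.0305. At an adjusted p under 0.05, 29.7% of all tested genes fell in KO against wt and 27.4% rose. Tfcp2l1 had 559 and 578 CPM in E518K, 831 and 830 CPM in KO, and 746 and 706 CPM in wt, and was highest in KO. It rose in KO against wt, with a log2 fold change of 0.19 ± 0.06 (edgeR adjusted p = 0.0214). Nanog had 724 and 756 CPM in E518K, 642 and 627 CPM in KO, and 722 and 627 CPM in wt, so that KO overlapped wt. The trophectoderm sum was also low in KO, at 32.6 and 31.5 CPM in E518K, 15.9 and 17.0 CPM in KO, and 27.8 and 29.8 CPM in wt. Most of that sum was Eomes, with 28.7 and 27.9 CPM in E518K, 13.7 and 14.4 CPM in KO, and 25.5 and 28.7 CPM in wt. Cdx2 did not follow, with 3.72 and 3.50 CPM in E518K, 1.89 and 2.07 CPM in KO, and 1.63 and 0.51 CPM in wt. Against wt its log2 fold change was 0.89 ± 0.46 in KO (edgeR adjusted p = 0.136) and 1.75 ± 0.46 in E518K (adjusted p = 0.0333). The other 3 trophectoderm markers stayed under 1 CPM in every library, so the low sum in KO rests on Eomes. The part of cell state in the ribosomal protein differences was not tested. In bulk RNA, fewer cells of a type and less RNA per cell cannot be told apart.

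The 5′ ends of 9 genes are shown because the tract at the start of the mRNA is the sequence feature for which this family is known. They are the 4 genes with the largest decrease in KO and the 4 genes that rose in KO among those with an entry, leaving out paralog copies, and Rpl27a, which had the longest tract of all members and also fell in KO (log2 fold change -0.55 ± 0.07, edgeR adjusted p = 0.000558). Each line gives 30 bases, 10 before and 20 from the start annotated by RefSeq on GRCm38.p6, in the direction of the gene. Capitals mark a run of at least 5 pyrimidines that begins with C within 5 bases of that start.
Rplp0 (chr5:115559457-115559486, plus strand): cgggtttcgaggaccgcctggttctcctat
Rps2 (chr17:24720053-24720082, plus strand): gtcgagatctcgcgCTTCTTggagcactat
Rps27 (chr3:90213629-90213658, minus strand): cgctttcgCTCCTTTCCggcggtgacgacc
Rpsa (chr9:120127756-120127785, plus strand): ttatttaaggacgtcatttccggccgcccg
Rpl27a (chr7:109519185-109519214, plus strand): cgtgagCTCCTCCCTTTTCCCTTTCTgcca
Rpl4 (chr9:64173377-64173406, plus strand): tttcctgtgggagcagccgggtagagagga
Rpl5 (chr5:107900518-107900547, plus strand): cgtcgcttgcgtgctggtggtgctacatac
Rps3a1 (chr3:86142649-86142678, minus strand): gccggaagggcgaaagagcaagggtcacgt
Rps4x (chrX:102189372-102189401, minus strand): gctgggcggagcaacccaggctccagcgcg

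RefSeq windows were matched by symbol for 66 of the 86 members. Such a tract stood at the start of 30 of the 66 (45.5%), against 21.2% of the 27025 genes with a window and 23.7% of the 11657 tested genes with one. It was found in 27 of the 55 members with a window that fell in KO against wt (49.1%), in 3 of 7 that were not called and in 0 of the 4 that rose. These are counts of letters in annotated windows, and an annotated start that lies off the start used in these cells would hide a tract. In the whole window of 300 bases, read on both strands, CCGGAAG (the ETS-type motif) occurred in 39.4% of the members, against 9.93% of all genes and 17.1% of tested genes. AAGATGGC (YY1-type), which can share its first 3 bases with the end of the ETS-type motif, occurred in 9.09% of the members, against 3.19% and 4.58%. CACGTG (the E-box) occurred in 9.09% of the members, against 8.09% and 11%.

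Ribosomal protein genes took up a smaller part of the mRNA counts in KO than in either of the other groups. They held 7.72% and 7.50% of all counts in E518K clones 8 and 15, 5.85% and 5.80% in the KO libraries, and 8.02% and 7.78% in wt clones 12 and 16. No KO library came near the others, while E518K and wt lay side by side, with E518K clone 15 the lowest and wt clone 12 the highest of those 4. The group means were 7.61 ± 0.16% in E518K, 5.83 ± 0.03% in KO and 7.90 ± 0.17% in wt (SD, n = 2 each), which makes KO 0.738 times wt and E518K 0.963 times wt. With 2 libraries against 2, an exact two-sided permutation test cannot give a p below 0.333, so no test was run on these shares.

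**Figure D1:**
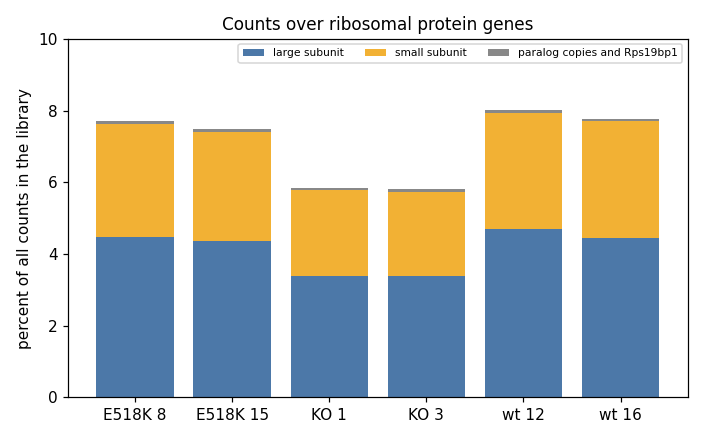
Percent of all counts in each library (vertical axis) that fell on ribosomal protein genes, split into large subunit, small subunit, and paralog copies with Rps19bp1. The KO bars reach 5.85% and 5.80%, below all 4 other bars, which lie between 7.50% and 8.02%.

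Both subunits contributed. Large subunit genes held 4.48% and 4.35% of counts in E518K, 3.40% and 3.38% in KO, and 4.68% and 4.45% in wt; small subunit genes held 3.14% and 3.05%, 2.38% and 2.36%, and 3.25% and 3.25%. The ratio of large to small subunit counts was 1.43 in both E518K and both KO libraries, and 1.44 and 1.37 in wt clones 12 and 16, so the balance of the subunits was alike where the total was not. The lower value of wt clone 16 went with Rpsa, the small subunit protein also known as the laminin receptor precursor, which had 4209 CPM there. Genes of the mitochondrial genome held 3.80% and 3.56% of counts in E518K, 5.00% and 4.97% in KO, and 3.24% and 3.23% in wt. Between groups their share was thus highest in KO and lowest in wt, opposite to the ribosomal share. Within each group, the library with the higher ribosomal share also had the higher mitochondrial share. With mitochondrial counts set aside, ribosomal protein genes made up 8.02% and 7.77% in E518K, 6.16% and 6.11% in KO, and 8.29% and 8.04% in wt.

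Expression differed widely among members. Per kilobase of coding sequence and averaged over the 6 libraries, Rpl41, which encodes the shortest protein of the set, had 16778 CPM per kb, followed by Rplp1 (4452), Rps2 (3169) and Rpsa (3144). The lowest were the paralog copy Rpl3l (1.30 CPM per kb), Rps27rt (57.2), Rps19bp1 (64.7) and Rpl10l (148). Every paralog copy lay below every gene of the subunits proper on this scale, of which Rpl7 was the lowest at 858 CPM per kb. The scale divides by coding length alone, which for Rpl41 is 75 bases of a span of 1192. Without that division Rpl41 averaged 1258 CPM, below Rps2 (2786 CPM), Rpsa (2782 CPM) and Rplp0 (2288 CPM), so its first place rests on the divisor. The 86 genes lie on 19 chromosomes, 4 of them on X, and the spans of 30 of them hold 58 annotated snoRNAs in all. Hosts and non-hosts had similar medians of the log2 fold change in KO against wt (-0.53 over 30 genes and -0.56 over 56 genes).

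KO against wt sets untransfected cells without DGCR8 beside transfected cells with the wild-type protein. Here and below, called means an adjusted p under 0.05 in the edgeR quasi-likelihood test with Benjamini-Hochberg adjustment over all 16498 tested genes. In KO, 73 of the 86 members fell, 5 rose and 8 were not called. Over all tested genes 57.2% were called, 29.7% lower and 27.4% higher, so decreases were more frequent among the members than among all genes, where change was already broad. The median log2 fold change of the members was -0.55, against -0.02 over all tested genes. Large subunit genes (40 lower, 3 higher, 3 not called; median -0.57) and small subunit genes (26 lower, 2 higher, 3 not called; median -0.55) were alike in this. For 83 of the 86 members (96.5%) the KO values did not overlap the wt values, which was also so for 81.7% of all tested genes. Between 68 and 74 members fell when any single library was left out, and 67 of the 73 were called in each of those fits; the other 6 were Rpl19, Rpl21, Rps12, Rps15a, Rps27a and Rps29.

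**Figure D2:**
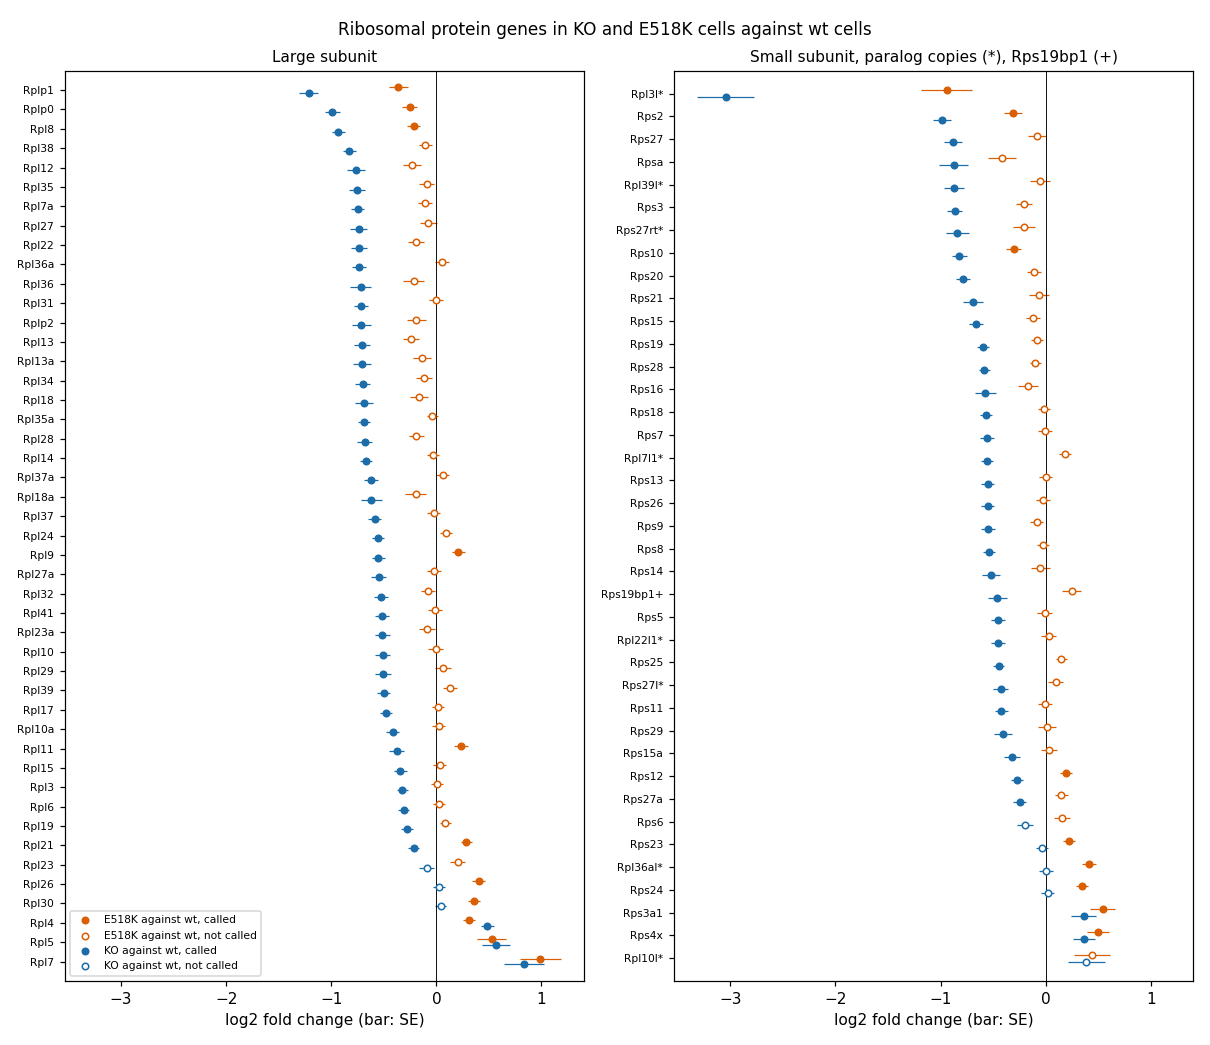
Log2 fold change of 85 members (points; bars are SE from the edgeR fit) in E518K against wt and in KO against wt, with large subunit genes in the left panel and small subunit genes, paralog copies and Rps19bp1 in the right panel, ordered by the KO value. Filled points are called. Most KO points are filled and lie left of 0, with Rpl7 (0.83), Rpl5, Rpl4, Rps4x and Rps3a1 filled right of 0, while most E518K points are open and lie near 0.

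The proteins of the stalk, which recruits elongation factors to the large subunit, were among the most decreased. Rplp1 (chromosome 9, 61913284 to 61914542, minus strand, GRCm38) had 905 and 876 CPM in KO, against 2246 and 1890 CPM in wt. Its partner Rplp0, the stalk base (chromosome 5, 115559467 to 115563727, plus strand), had 1463 and 1485 CPM in KO, against 3096 and 2767 CPM in wt. Rplp2 had 531 and 521 CPM in KO, against 912 and 813 CPM in wt. In all 3 both KO libraries lay far below both wt clones, and wt clone 12 was the higher wt library. The log2 fold changes were -1.22 ± 0.09 for Rplp1 (SE; edgeR adjusted p = 8.78e-05), -0.99 ± 0.07 for Rplp0 (adjusted p = 7.69e-05) and -0.71 ± 0.09 for Rplp2 (adjusted p = 0.000734).

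Rpl8, a protein near the peptidyl transferase centre (chromosome 15, 76904078 to 76906314, plus strand), had 1145 and 1151 CPM in KO, against 2272 and 2112 CPM in wt. Rps2, at the mRNA entry channel of the small subunit (chromosome 17, 24718116 to 24721929, plus strand), had 1794 and 1848 CPM in KO, against 3888 and 3339 CPM in wt. Rps27 (chromosome 3, 90212522 to 90213651, minus strand) had 235 and 231 CPM in KO, against 420 and 438 CPM in wt. The libraries of KO and wt were well separated in each. On the log2 scale the differences were -0.93 ± 0.06 (edgeR adjusted p = 5.97e-05) for Rpl8, -0.99 ± 0.09 (adjusted p = 0.000144) for Rps2 and -0.88 ± 0.09 (adjusted p = 0.000224) for Rps27. With Rplp1 and Rplp0, these are the 5 largest decreases once Rpl3l, whose average log2 CPM lies under 1, is set aside. Rps27 shares its coding sequence with Rps27rt, described with the copies.

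Rpsa (chromosome 9, 120127689 to 120132369, plus strand) had 2004 and 1959 CPM in KO, against 3063 and 4209 CPM in wt. Both KO libraries were low and wt clone 16 was the highest of all 6. The log2 fold change was -0.88 ± 0.14 (edgeR adjusted p = 0.00151), and it ran from -1.09 to -0.63 when single libraries were left out. The call held in each of those fits.

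Against this trend 5 members rose in KO: Rpl7, Rpl5, Rpl4, Rps4x and Rps3a1. Rpl7 (chromosome 1, 16101295 to 16104662, minus strand) had 769 and 790 CPM in KO, against 432 and 443 CPM in wt. Rpl5, which carries the 5S rRNA into the large subunit together with Rpl11 (chromosome 5, 107900502 to 107909005, plus strand), had 962 and 980 CPM in KO, against 654 and 654 CPM in wt. Rpl4, a protein of the peptide exit tunnel (chromosome 9, 64173375 to 64178666, plus strand), had 2070 and 2086 CPM in KO, against 1492 and 1476 CPM in wt. For these the 2 libraries of each group nearly coincided and KO was above wt. The span of Rpl5 overlaps that of Fam69a, with which it can share reads.

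The small subunit genes Rps4x and Rps3a1 rose by less. Rps4x (X chromosome, 102184941 to 102189394, minus strand) had 832 and 845 CPM in KO, against 658 and 642 CPM in wt. Rps3a1 (chromosome 3, 86137940 to 86142702, minus strand) had 734 and 743 CPM in KO, against 586 and 563 CPM in wt. All KO values were above all wt values. The log2 fold changes were 0.83 ± 0.19 for Rpl7 (edgeR adjusted p = 0.00821), 0.57 ± 0.13 for Rpl5 (adjusted p = 0.009), 0.49 ± 0.06 for Rpl4 (adjusted p = 0.000513), 0.37 ± 0.11 for Rps4x (adjusted p = 0.0215) and 0.36 ± 0.12 for Rps3a1 (adjusted p = 0.0318).

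Of these 5 increases only that of Rpl4 was called in every fit that left out a single library. The calls of Rpl7 and Rpl5 were lost without wt clone 12 (log2 fold changes 0.82 and 0.57) or wt clone 16 (0.85 and 0.57). Those of Rps4x and Rps3a1 were lost without KO library 1 (0.38 and 0.37), KO library 3 (0.35 and 0.35), wt clone 12 (0.39 and 0.39) or wt clone 16 (0.34 and 0.33). The direction was the same throughout. Over the single libraries left out, the log2 fold changes ran from 0.81 to 0.85 for Rpl7 and 0.56 to 0.58 for Rpl5. They ran from 0.34 to 0.39 for Rps4x and 0.33 to 0.39 for Rps3a1. The E518K clones, which lay far apart in these 4 genes, also lend their spread to this comparison. Rpl10l, not called with all libraries, was called higher without wt clone 12 (log2 fold change 0.73). The members called higher in KO were thus Rpl4, Rpl5 and Rpl7 without either KO library, Rpl4 and Rpl10l without wt clone 12, and Rpl4 alone without wt clone 16.

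Rpl11, the other protein bound to the 5S rRNA and like Rpl5 a known inhibitor of Mdm2, moved opposite to Rpl5. It had 422 and 445 CPM in KO, against 595 and 532 CPM in wt, with no overlap. The log2 fold change was -0.38 ± 0.07 (edgeR adjusted p = 0.00327). The 8 members that were not called were Rps6, Rpl23, Rps23, Rps24, Rpl26, Rpl30 and the copies Rpl36al and Rpl10l. Their log2 fold changes ran from -0.20 ± 0.08 for Rps6 (adjusted p = 0.059) to 0.39 ± 0.17 for Rpl10l (adjusted p = 0.0921). Rps6, the phosphorylated target of S6 kinase, had 911 and 959 CPM in KO, against 1122 and 1025 CPM in wt.

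**Figure D3:**
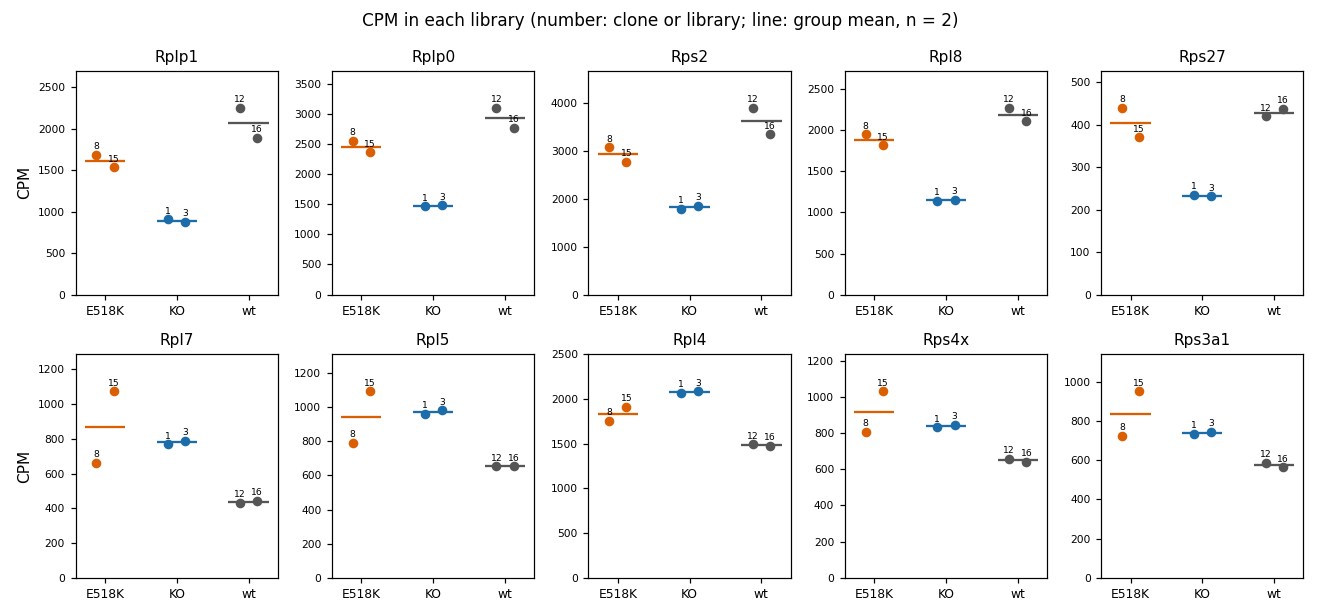
CPM of 10 members in each library (vertical axes start at 0; points are libraries with their clone or library number, lines are group means, n = 2). In the upper row are the 5 largest decreases in KO, and in the lower row the 5 genes that rose; in the lower row wt is lowest throughout, and for Rpl7 E518K clone 15 (1074 CPM) stands well above clone 8 (663 CPM).

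E518K against wt sets cells with the substituted protein beside cells with the wild-type protein, both from the same vector. Most members were not called: 15 rose, 6 fell and 65 did neither. Over all tested genes 23.7% were called, 11.3% higher and 12.5% lower. The median of the members was -0.01, against -0.02 over all tested genes. E518K and wt values did not overlap for 47 members (54.7%), against 62.0% of all tested genes. The large subunit had 8 higher and 3 lower of 46, the small subunit 6 higher and 2 lower of 31, and the copies 1 of each. These counts depended strongly on single libraries. The members that rose numbered 8 without either KO library, which lends its spread to this fit, and 2 without E518K clone 15. Those that fell numbered 0 without either KO library or without E518K clone 15, 1 without E518K clone 8 and 23 without wt clone 16. With only the 4 libraries compared, 9 members rose and 0 fell.

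The 5 genes that rose in KO were also called higher in E518K against the same wt libraries. Rpl7 had 663 and 1074 CPM in E518K clones 8 and 15, against 432 and 443 CPM in wt. Rpl5 had 789 and 1092 CPM in E518K, against 654 and 654 CPM in wt. Rps3a1 had 723 and 951 CPM in E518K, against 586 and 563 CPM in wt. In each both E518K clones lay above wt, and clone 15 lay far above clone 8. Rps4x had 806 and 1030 CPM in E518K, against 658 and 642 CPM in wt. Rpl4 had 1759 and 1913 CPM in E518K, against 1492 and 1476 CPM in wt. Clone 15 was again the higher one, and neither gene overlapped wt.

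The log2 fold changes in E518K against wt were 0.99 ± 0.19 for Rpl7 (edgeR adjusted p = 0.0128), 0.54 ± 0.12 for Rps3a1 (adjusted p = 0.0183), 0.52 ± 0.13 for Rpl5 (adjusted p = 0.0308), 0.50 ± 0.11 for Rps4x (adjusted p = 0.018) and 0.31 ± 0.06 for Rpl4 (adjusted p = 0.0122). Without clone 15 the values were 0.61 for Rpl7, 0.34 for Rps3a1, 0.28 for Rpl5, 0.32 for Rps4x and 0.26 for Rpl4, and the last 4 of these lost the call. Without wt clone 12 or 16 the calls of Rpl7 (0.98 and 1.01), Rps3a1 (0.57 and 0.51), Rpl5 (0.53 and 0.53) and Rps4x (0.52 and 0.48) were lost as well. The call of Rpl5 was also lost without either KO library (0.53 each time). Rpl7, Rpl5, Rps3a1 and Rps4x were the 4 members, and the only ones of 86, for which clone 15 exceeded clone 8 by more than 0.3 on the log2 scale (0.70, 0.47, 0.39 and 0.35). Among all tested genes 7.56% did so.

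Further members called higher included Rpl36al, Rpl26, Rpl30, Rps24, Rpl21, Rpl11, Rps23, Rpl9 and Rps12, with log2 fold changes between 0.41 and 0.19. Rpl30, which in yeast also represses its own splicing, had 505 and 495 CPM in E518K, against 397 and 384 CPM in wt. It was the one increase that stayed called whichever single library was left out (log2 fold change 0.36 ± 0.05, edgeR adjusted p = 0.00586). Among these, Rpl11, Rpl21, Rpl9 and Rps12 had fallen in KO against the same wt libraries, so that wt lay between KO and E518K.

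The values of those 4 genes were as follows. Rpl21 had 699 and 732 CPM in E518K, 508 and 501 CPM in KO, and 587 and 587 CPM in wt. The libraries of a group lay close together and no groups overlapped. Rpl9 had 862 and 929 CPM in E518K, 524 and 533 CPM in KO, and 790 and 761 CPM in wt. Rps12 had 1005 and 950 CPM in E518K, 715 and 699 CPM in KO, and 873 and 836 CPM in wt. Rpl11 had 654 and 671 CPM in E518K, next to the KO and wt values given above. The groups did not overlap in these genes either.

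Their log2 fold changes in E518K against wt were 0.29 ± 0.05 for Rpl21 (edgeR adjusted p = 0.0121), 0.21 ± 0.06 for Rpl9 (adjusted p = 0.0458), 0.19 ± 0.06 for Rps12 (adjusted p = 0.0492) and 0.23 ± 0.07 for Rpl11 (adjusted p = 0.0499). In KO against wt they were -0.22 ± 0.05, -0.55 ± 0.06, -0.27 ± 0.06 and -0.38 ± 0.07 in the same gene order. The E518K calls of all 4 were lost when either KO library or E518K clone 15 was left out. Without E518K clone 8 those of Rpl9, Rps12 and Rpl11 were lost, and without wt clone 16 that of Rpl11. Over the single libraries left out, the E518K values ranged from 0.26 to 0.32 for Rpl21, 0.16 to 0.26 for Rpl9, 0.15 to 0.25 for Rps12 and 0.16 to 0.32 for Rpl11. The KO call of Rpl21 was lost without KO library 1 or 3 (-0.23 and -0.21), and that of Rps12 without KO library 3 (-0.26).

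The members that fell in E518K against wt were Rplp1, Rps2, Rps10, Rplp0, Rpl8 and the copy Rpl3l. Rplp1 had 1685 and 1532 CPM in E518K, against 2246 and 1890 CPM in wt. Rplp0 had 2551 and 2362 CPM in E518K, against 3096 and 2767 CPM in wt. Rpl8 had 1950 and 1819 CPM in E518K, against 2272 and 2112 CPM in wt. The E518K clones lay below the wt clones and above KO, and clone 15 was the lower of the pair. Rps2 had 3072 and 2774 CPM in E518K, against 3888 and 3339 CPM in wt, and Rps10 had 767 and 720 CPM in E518K, against 970 and 864 CPM in wt. These groups did not overlap.

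The log2 fold changes were -0.36 ± 0.09 for Rplp1 (edgeR adjusted p = 0.029), -0.31 ± 0.09 for Rps2 (adjusted p = 0.0405), -0.30 ± 0.07 for Rps10 (adjusted p = 0.0255), -0.26 ± 0.07 for Rplp0 (adjusted p = 0.0402) and -0.22 ± 0.06 for Rpl8 (adjusted p = 0.0432). Each of these 5 calls was lost without either KO library and without either E518K clone, and those of Rps2, Rplp0 and Rpl8 also without wt clone 12. Over the single libraries left out, the values ran from -0.48 to -0.23 for Rplp1, -0.41 to -0.19 for Rps2, -0.38 to -0.21 for Rps10, -0.33 to -0.17 for Rplp0 and -0.27 to -0.16 for Rpl8. Rpsa (2862 and 2597 CPM in E518K, against 3063 and 4209 CPM in wt) had a larger fold change of -0.41 ± 0.14 that missed the threshold (adjusted p = 0.0653).

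E518K against KO sets transfected cells with the substituted protein beside untransfected cells without DGCR8, so protein and transfection cannot be told apart here. Of the 86 members 80 rose, 1 fell and 5 were not called, with a median log2 fold change of 0.52, against -0.02 over all tested genes. Over all tested genes 41.8% were called, 22.0% higher and 19.8% lower. In the large subunit 43 of 46 rose (median 0.52), in the small subunit 29 of 31 (median 0.49). Between 67 and 80 members rose when single libraries were left out, and 66 of the 80 were called in each of those fits. E518K and KO values did not overlap for 82 members (95.3%), against 80.5% of all tested genes. KO libraries enter both this comparison and KO against wt, and the values of each are therefore no separate evidence.

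Apart from Rpl3l, the largest increases were those of Rplp1, the copy Rpl39l, Rps27, Rpl36a and Rpl9. Rplp1 had 1685 and 1532 CPM in E518K, against 905 and 876 CPM in KO. Rps27 had 440 and 370 CPM in E518K, against 235 and 231 CPM in KO. Rpl36a had 483 and 438 CPM in E518K, against 268 and 264 CPM in KO. The E518K clones were clearly the higher ones in each. Expressed as log2 fold change, the differences were 0.85 ± 0.09 for Rplp1 (edgeR adjusted p = 0.000626), 0.80 ± 0.09 for Rps27 (adjusted p = 0.000647), 0.79 ± 0.07 for Rpl36a (adjusted p = 0.000306) and 0.76 ± 0.06 for Rpl9 (adjusted p = 0.000273).

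Rpl4 was the one member called lower in E518K than in KO. It had 1759 and 1913 CPM in E518K, against 2070 and 2086 CPM in KO. The log2 fold change of -0.18 ± 0.06 (edgeR adjusted p = 0.0443) lost its call without E518K clone 8 (-0.11), KO library 1 (-0.18) or KO library 3 (-0.17). Rpl7, Rpl5, Rps3a1, Rps4x and the copy Rpl10l were not called, with log2 fold changes of 0.16 ± 0.19, -0.05 ± 0.13, 0.18 ± 0.12, 0.13 ± 0.11 and 0.05 ± 0.17. In the first 4 the KO libraries lay between the 2 E518K clones. Rpsa rose by 0.46 ± 0.14 (adjusted p = 0.0301), a call that was lost without either E518K clone (0.39 without clone 8, 0.55 without clone 15) and without either KO library (0.48 without library 1, 0.45 without library 3). Among the smallest called increases, that of Rpl3 (0.33 ± 0.05, adjusted p = 0.00299) was lost without KO library 3 (0.32).

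The 8 paralog copies differ in how close they are to the gene they copy. The coding sequence of Rps27rt, a single exon on chromosome 9 inside Osbpl10, is 100% identical to that of Rps27 over all 252 bases. Reads of 100 bases that lie within it cannot be assigned to one or the other by sequence. Bases outside the coding sequence were not compared. Rps27rt had 3.68 and 4.0 counts per 100 counts of Rps27 in E518K, 4.37 and 4.16 in KO, and 4.25 and 4.05 in wt. This was nearly a fixed share, and the values of Rps27rt are uncertain because of the shared sequence. The other copies were 87.7% (Rpl36al), 85.0% (Rpl39l), 84.7% (Rpl10l), 76.2% (Rps27l), 73.2% (Rpl3l), 68.2% (Rpl22l1) and 54.0% (Rpl7l1) identical in coding sequence. Their longest shared runs were between 10 and 38 bases, shorter than a read.

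Most copies moved with the subunit genes. In KO against wt 6 of 8 fell (75%) and 0 rose, beside 29.7% and 27.4% of all tested genes. In E518K against KO 7 rose (87.5%), beside 22.0% of all tested genes. Both counts include Rps27rt, whose reads cannot be told from those of Rps27 by coding sequence. Rpl3l, the muscle form of Rpl3 (chromosome 17, 24727820 to 24736143, plus strand), had by far the lowest level. It had 1.39 and 1.62 CPM in E518K, 0.35 and 0.35 CPM in KO, and 3.20 and 2.58 CPM in wt, that is 27 counts in each KO library. The 3 groups did not overlap. The KO value changed by -3.04 ± 0.27 relative to wt on the log2 scale (edgeR adjusted p = 0.000151), the largest decrease of all members, although Rpl3 itself changed by -0.32 ± 0.05 (adjusted p = 0.00209). In E518K against wt it was -0.94 ± 0.24 (adjusted p = 0.031), a call lost without either KO library (-0.94 each time) or either E518K clone (-0.84 without clone 8, -1.05 without clone 15).

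Rpl39l, a form of the exit tunnel protein Rpl39 known from the testis, had 38.8 and 36.1 CPM in E518K, 21 and 21.4 CPM in KO, and 36.1 and 41.6 CPM in wt. KO was the low group and E518K overlapped wt. Its log2 fold change in KO against wt, -0.87 ± 0.10 (edgeR adjusted p = 0.000346), compares with -0.50 ± 0.07 for Rpl39 (adjusted p = 0.000724). Rpl22l1 had 116 and 118 CPM in E518K, 84.8 and 82.6 CPM in KO, and 121 and 109 CPM in wt, a change of -0.45 ± 0.07 in KO (adjusted p = 0.00146) beside -0.74 ± 0.07 for Rpl22 (adjusted p = 0.000246). Rps27l, known in human cells as a target of p53, had 126 and 117 CPM in E518K, 87.6 and 81.5 CPM in KO, and 117 and 110 CPM in wt, a change of -0.43 ± 0.07 in KO (adjusted p = 0.00224). In both KO was again low. The differences between a copy and its gene were not tested.

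Rpl7l1 fell in KO while Rpl7 rose. It had 280 and 267 CPM in E518K, 164 and 163 CPM in KO, and 241 and 240 CPM in wt, with no overlap of groups and a log2 fold change in KO against wt of -0.56 ± 0.06 (edgeR adjusted p = 0.000264). Counts of Rpl7l1 per 100 counts of Rpl7 were accordingly 42.3 and 24.9 in E518K, 21.3 and 20.6 in KO, and 55.8 and 54.1 in wt, with E518K clone 15 near KO.

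Rpl36al and Rpl10l did not follow. Rpl36al had 224 and 244 CPM in E518K, 173 and 180 CPM in KO, and 178 and 174 CPM in wt, so that KO and wt overlapped and E518K was above both. In KO it changed by 0.01 ± 0.07 on the log2 scale (edgeR adjusted p = 0.942), and in E518K by 0.41 ± 0.07 relative to wt (adjusted p = 0.00684), a call that was lost without E518K clone 15 (0.36). Rpl36a, the gene it copies, changed by -0.74 ± 0.07 in KO (adjusted p = 0.000162) and by 0.06 ± 0.07 in E518K (adjusted p = 0.571). Rpl10l had 106 and 106 CPM in E518K, 103 and 101 CPM in KO, and 94.4 and 61.4 CPM in wt; wt clone 16 was far below clone 12, and no comparison of Rpl10l was called with all 6 libraries. Rpl10 changed by -0.51 ± 0.07 in KO (adjusted p = 0.000939). Rps19bp1, the member that is no ribosomal protein, had 34.1 and 33.6 CPM in E518K, 20.8 and 20.8 CPM in KO, and 30.1 and 27.0 CPM in wt, a change of -0.46 ± 0.09 in KO (adjusted p = 0.00367).

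**Figure D4:**
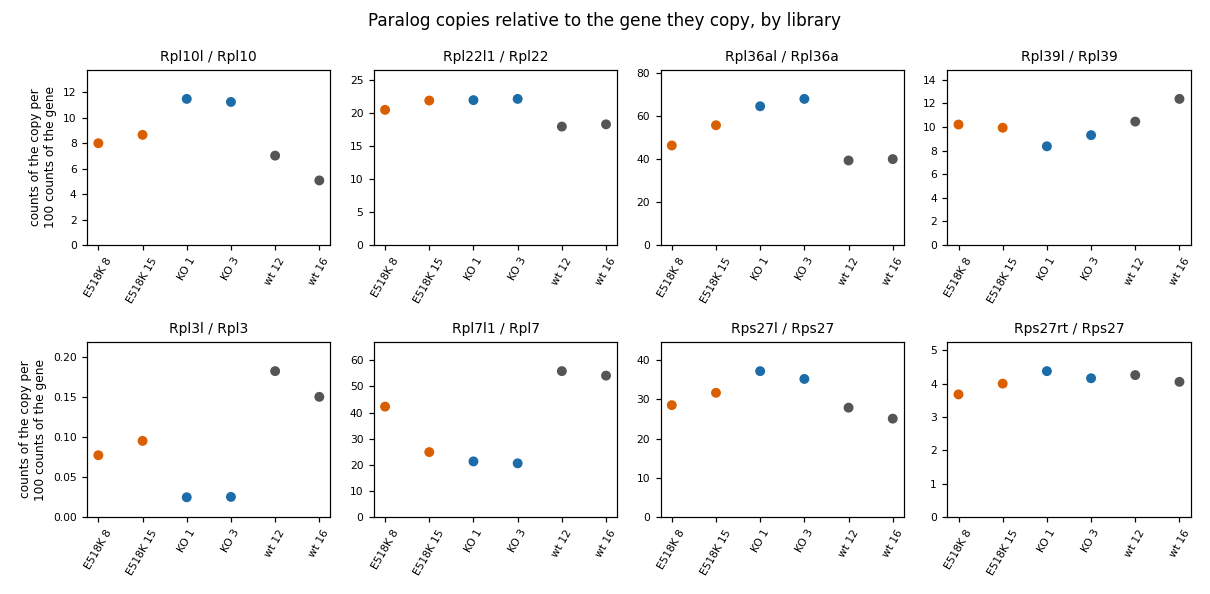
Counts of each paralog copy per 100 counts of the gene it copies (vertical axes start at 0), one point per library, E518K left, KO in the middle, wt right. Rpl36al, Rpl10l, Rps27l and, narrowly, Rpl22l1 are highest relative to their genes in KO, while Rpl3l, Rpl7l1 and Rpl39l are lowest there. Rps27rt, whose coding sequence equals that of Rps27, lies between 3.68 and 4.37 in all 6 libraries.

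Base composition varied together with the differences from wt. Over the 86 members, GC content of the coding sequence and the log2 fold change in KO against wt had a Spearman correlation of -0.41, and in E518K against wt of -0.56 (Pearson -0.37 and -0.49). With members split into 3 classes by GC, the median log2 fold change in KO was -0.32 in the lowest class (39.9% to 50.6%, 29 genes), -0.55 in the middle class (29 genes) and -0.69 in the highest (54.7% to 61.6%, 28 genes). In E518K against wt the medians were 0.15, -0.01 and -0.13 in the same order. For E518K against KO there was little such relation, with a Spearman correlation of 0.165 and class medians of 0.48, 0.53 and 0.52. The 5 members that rose in KO had a median coding GC of 47.4%, against 53.6% in the 73 that fell. The same direction was seen between libraries of one group, with a Spearman correlation of -0.40 for E518K clone 15 over clone 8 and -0.57 for wt clone 16 over clone 12, but 0.05 for KO library 3 over library 1. It was also seen over 14963 tested genes with a coding sequence (-0.33 for KO and -0.32 for E518K against wt). The genes share libraries and are not independent replicates, so these are descriptions, and the part of base composition in the fold changes was not tested.

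**Figure D5:**
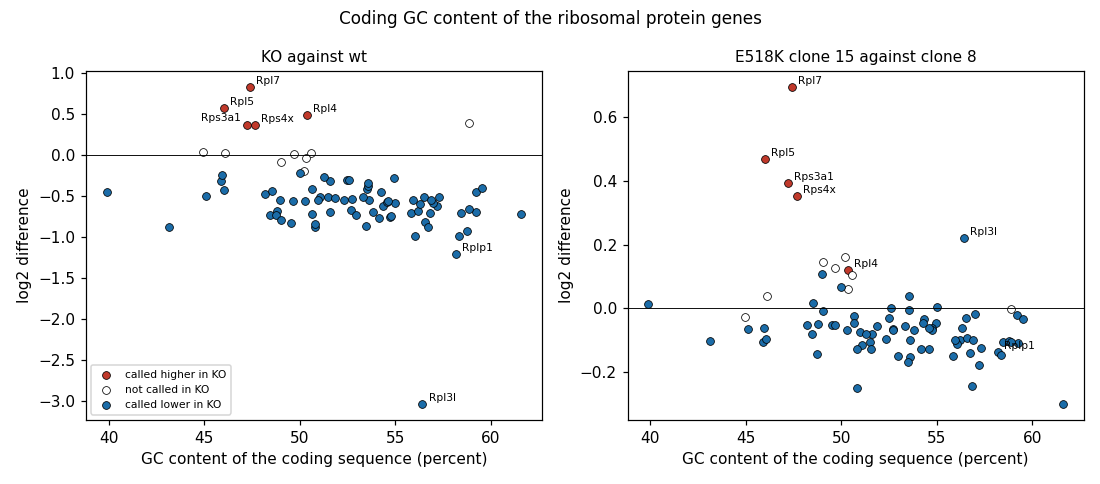
Log2 difference of each member (vertical axes) against the GC content of its coding sequence in percent, for KO against wt (left) and for E518K clone 15 over clone 8 (right), with colours for the call in KO against wt. The members that rose in KO sit between 46% and 51% GC in the left panel, and 4 of them are the highest points of the right panel, between 2 clones of one group.

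Replicate libraries were otherwise close for these genes. The median log2 ratio of members was -0.06 for E518K clone 15 over 8, -0.11 for wt clone 16 over 12 and -0.02 for KO library 3 over 1. In wt, Rpsa was the one member with clone 16 more than 0.3 above clone 12 (0.46), where 16.5% of all tested genes were. Rpl10l (-0.62) and Rpl3l (-0.31) lay more than 0.3 the other way, as did 12.6% of all tested genes. In KO all members lay between -0.15 and 0.11.

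Other parts of the protein synthesis apparatus were read from lists against the same backgrounds. Of other proteins of the cytosolic ribosome, Fau (the precursor of Rps30) and Rack1 (in the table as Gnb2l1) fell in KO against wt, were not called in E518K against wt and rose in E518K against KO. Fau had 579 and 542 CPM in E518K, 383 and 380 CPM in KO, and 634 and 578 CPM in wt. Gnb2l1 had 2193 and 2006 CPM in E518K, 1558 and 1494 CPM in KO, and 2421 and 2283 CPM in wt. KO was the low group in both, with log2 fold changes against wt of -0.67 ± 0.07 (edgeR adjusted p = 0.00025) and -0.62 ± 0.07 (adjusted p = 0.000293).

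Of 77 mitochondrial ribosomal protein genes, which make the separate ribosome of that organelle, 41 fell and 8 rose in KO against wt (53.2% and 10.4%, median -0.28), where 29.7% of all tested genes fell and 27.4% rose. In E518K against wt 22 rose and 1 fell (28.6% and 1.3%, median 0.17), against 11.3% and 12.5% of all tested genes. In E518K against KO 55 rose and 0 fell (median 0.42), with 71.4% higher against 22.0% of all tested genes. Mrpl11 had 58.1 and 55.2 CPM in E518K, 25.4 and 24.9 CPM in KO, and 46.7 and 42.7 CPM in wt, with E518K highest and KO lowest and no overlap. Of 40 ribosome biogenesis genes 11 rose and 13 fell in KO against wt (27.5% and 32.5%, median -0.03), shares near those of all tested genes. In E518K against wt 12 rose and 0 fell (30% higher, median 0.22), against 11.3% higher over all tested genes. Nip7, a factor of large subunit assembly, had 112 and 107 CPM in E518K, 51.6 and 54.2 CPM in KO, and 112 and 102 CPM in wt. Tsr1, a factor of small subunit maturation whose span overlaps Srr, had 138 and 158 CPM in E518K, 193 and 192 CPM in KO, and 107 and 117 CPM in wt. The 2 genes moved opposite ways in KO, by -1.01 ± 0.07 (edgeR adjusted p = 8.15e-05) and 0.78 ± 0.08 (adjusted p = 0.000305).

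Of 16 genes of RNA polymerase I and its initiation factors, 4 rose and 8 fell in KO against wt (25% and 50%, beside 27.4% and 29.7% of all tested genes), and 7 rose and 0 fell in E518K against wt (43.8% higher, beside 11.3%). The initiation factor Rrn3 was among those that rose in both, with 353 and 348 CPM in E518K, 363 and 362 CPM in KO, and 229 and 258 CPM in wt. E518K and KO overlapped neither wt clone. Of 37 translation factors 8 rose and 17 fell in KO against wt (21.6% and 45.9%, median -0.15), and 12 rose and 2 fell in E518K against wt (32.4% and 5.41%, median 0.11). Eef1g, a subunit of the elongation factor complex, fell by 0.81 on the log2 scale in KO (SE 0.06, edgeR adjusted p = 9.22e-05), with 1088 and 1075 CPM against 1930 and 1873 CPM in wt. Pabpc1, the cytoplasmic poly(A)-binding protein, had 2684 and 2461 CPM in E518K, 1687 and 1667 CPM in KO, and 3152 and 3415 CPM in wt, and fell in E518K (log2 fold change -0.35 ± 0.07, edgeR adjusted p = 0.0114) and in KO (-0.97 ± 0.07, adjusted p = 6.37e-05) against wt.

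Of 17 genes of the mTOR pathway and Larp1, 4 rose and 8 fell in KO against wt (23.5% and 47.1%, beside 27.4% and 29.7% of all tested genes). In E518K against wt 2 rose and 3 fell (11.8% and 17.6%, beside 11.3% and 12.5%). Rictor, which defines mTOR complex 2, had 27.5 and 33.1 CPM in E518K, 66.0 and 67.9 CPM in KO, and 26.7 and 32.5 CPM in wt. Eif4ebp1, a repressor of cap-dependent translation that mTOR inactivates, had 360 and 338 CPM in E518K, 198 and 194 CPM in KO, and 418 and 381 CPM in wt. Ddit4, an inhibitor of mTOR complex 1, had 27.1 and 23.1 CPM in E518K, 31.7 and 29.2 CPM in KO, and 114 and 94.3 CPM in wt. KO stood apart in Rictor (higher) and Eif4ebp1 (lower), whereas for Ddit4 both E518K and KO lay far below wt. The log2 fold changes in KO against wt were 1.18 ± 0.12 for Rictor (edgeR adjusted p = 0.000294), -1.02 ± 0.07 for Eif4ebp1 (adjusted p = 6.06e-05) and -1.77 ± 0.12 for Ddit4 (adjusted p = 6.15e-05). In E518K against wt Ddit4 changed by -2.05 ± 0.12 (adjusted p = 0.000511).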

How the data were processed

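Poly(A)-selected RNA of 6 cultures was sequenced in paired ends of 100 bases, per the labels. The deposited table of raw counts per gene was made by the authors without normalization, and the deposited TPM table scales these counts by 1 length per gene. The submitters' processing notes name STAR, bedtools and the build GRCm38.p6; no source used here gives tool versions or settings. The length implied by count and TPM matched the genomic span within 5% for 98.54% of 12689 genes with at least 50 counts, and for 97.65% of 85 members, so the counts may include intronic reads and reads of overlapping genes. Whether strand was used is not stated.

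Counts were tested with edgeR 4.0.16 in R 4.3.3 (TMM factors, expression filter with a minimum count of 10, robust quasi-likelihood F test, Benjamini-Hochberg threshold 0.05). A single model of all 6 libraries, with group alone, left 3 residual degrees of freedom. CPM values use the TMM factors, and an SE is that of the log2 fold change in this fit. DESeq2 1.42.0 and limma 3.58.1 on log2(TPM + 1) served as alternatives, with other scaling, filters and libraries. Spans and coding sequences come from GENCODE M21, and all 86 members were matched.

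The members and lists were chosen with earlier results of these data known. Named genes followed a rule: the markers Rplp0 and Rpl8, the stalk, Rpsa, each copy and its gene, Rps19bp1, Rpl5 and Rpl11, the 5 largest increases and decreases per comparison among called members whose average log2 CPM reached 1, members called in opposite directions against wt, and up to 4 genes per related list with the smallest p. Rpl41, Rpl30, Rps6, Rpl27a and other members outside the rule were named after their values were seen. So were the markers Klf4, Esrrb, Sox2, Zfp42, Pou5f1, Tfcp2l1, Nanog, Eomes and Cdx2. Results for some single genes are not reported here. The list of noncoding snoRNA hosts had 0 of 12 members in the table. By the design text each condition had independent clones, yet both KO titles carry 261, so p-values measure the spread between these libraries, which may be technical.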

Additional observations from a re-analysis of the deposited data

How the results depend on the processing

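The median log2 fold change of the members stayed between -0.61 and -0.49 in KO against wt, between -0.07 and 0.04 in E518K against wt and between 0.41 and 0.58 in E518K against KO under all alternatives run. The 73 decreases in KO and the 80 increases in E518K against KO were within 1.5 times under each of them (68 to 74 and 67 to 80 when a library was left out). Leaving out single libraries gave 6084 to 10958 called genes in KO against wt, 644 to 6987 in E518K against wt and 3285 to 9482 in E518K against KO. Members then rose in 1 to 5 cases in KO and fell in 0 to 23 and rose in 2 to 17 in E518K against wt, and 0 to 2 fell in E518K against KO. With the KO libraries, which carry 1 clone number, summed to a single library, the called genes were 6163, 1909 and 3267; 3 members rose in KO, 8 rose and 0 fell in E518K against wt, and 0 fell in E518K against KO. With only the 4 libraries compared, E518K against wt had 1999 called genes, 9 members higher and 0 lower. Upper-quartile factors gave 11 members lower in E518K against wt. Limma on log2(TPM + 1) gave 3 members higher in KO, and 3 higher and 19 lower in E518K against wt. Rpl4 was not called lower in E518K against KO without the low-count filter or among genes that overlap no other gene (0 members each). The cause of these shifts was not tested. Of all calls in E518K against wt, 47.5% were increases, against 37.5% with upper-quartile factors, 26.8% with limma on TPM and 60.2% and 60.1% without E518K clone 15 or 8; in E518K against KO it was 52.7%, against 40.7% with limma on TPM. DESeq2 and TMM factors computed without the members kept all counts within 1.5 times. Of 1335 values of named members under alternatives, 1176 kept their side of the threshold, 139 lost a call, 20 gained one and 0 called values reversed; 27 values not called either way changed sign.

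No paired analysis was possible because the groups share no replicate number. With 2 libraries per group, the spread rests on 3 residual degrees of freedom shared by all groups, and the biological coefficient of variation was 20.59% in wt, 9.191% in E518K and 2.605% in KO. Every member had at least 27 counts in each library. Errors cover these libraries only.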

Other observations

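Of the 7 rows of the table whose symbols mark ribosomal protein pseudogenes, 3 followed their parent genes closely. Rpl27-ps3 had 22.6 and 21.9 counts per 100 counts of Rpl27 in E518K, 23.6 and 23.3 in KO, and 22.5 and 22.3 in wt. Rps12-ps3 had 8.29 and 8.26 counts per 100 of Rps12 in E518K, 8.58 and 8.83 in KO, and 8.78 and 8.57 in wt. Rpl9-ps6 had 5.01 and 4.63 counts per 100 of Rpl9 in E518K, 4.64 and 4.97 in KO, and 5.12 and 4.91 in wt. The other 4 rows had at most 284 counts in any library. No source used here says how reads that match several genes were counted, and parent and pseudogene values can share reads.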
